A study of Mus musculus with 6 samples.

Results

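Digestive enzymes and the secretory protein Reg1 were followed by ribosome footprints in 266-6, a mouse cell line derived from a pancreatic acinar tumour that arose in mice with a transgene driven by an elastase promoter. The set held 8 transcripts of 142314 listed in each library, chosen by their Ensembl transcript identifiers. A member was kept only where the deposited length value equalled a preset number, given as the protein's residues less 9. All 8 met this, but no protein sequence was available to check the preset numbers. Wild-type (WT) and Mettl18 knockout (KO) cells gave 3 libraries each, and all cells, WT included, had received a plasmid encoding FLAG-tagged Reg1 (Reg1-FLAG) and 48 h of culture. Lysates contained 100 μg/ml cycloheximide, which holds ribosomes on the mRNA. The labels do not say whether the KO cells were 1 clone, or whether each library had a culture of its own. The spread that the p-values rest on is that of these libraries and may be technical.

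Acinar cells make the enzymes that digest protein, fat and starch, store them in zymogen granules and release them into the pancreatic duct. The proteases are made as inactive precursors and carry signal peptides that direct their synthesis to the endoplasmic reticulum. METTL18 methylates RPL3, a protein of the large ribosomal subunit, on a histidine, and the study's title places it in translation and protein homeostasis of the pancreas. A footprint count reflects both the amount of an mRNA and how densely ribosomes occupy it. These were not separated here, and a footprint level is not a protein level.

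In Mettl18 KO cells footprints on Reg1 rose 5.46-fold and those on Cel, which encodes a lipase, fell to the edge of detection. Footprints on the abundant proteases Prss2 (trypsin) and Ctrb1 (chymotrypsinogen) were not distinguished between genotypes, and Cela1 (elastase) was higher in every KO library without passing the test. The remaining members, Pnlip, Clps and Cpb1, had few footprints in either genotype. Of the 8 members, 6 passed the filter on low counts, and 1 of these rose and 1 fell in edgeR's quasi-likelihood test at a Benjamini-Hochberg adjusted p of 0.05. Among all 30588 tested transcripts the test called 9.43%, with 5.14% higher and 4.30% lower in KO. That share varied with the libraries used. It was 2.12% without KO replicate 2, 2.28% without KO replicate 3 and 2.50% with the pair summed. It was 4.46%, 12.4% and 8.87% without WT replicates 1, 2 and 3, and 6.44% without KO replicate 1. Reg1 and Cel were called in each of these. The median log2 fold change (KO over WT) was 0.02 over the 6 members and -0.06 over all tested transcripts. For 3 of the 6 members all WT libraries lay on one side of all KO libraries, which was also so for 30.8% of all tested transcripts.

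Counts per library, with transcripts of identical counts entered once, ran from 3792964 to 5131937 in WT and from 5379044 to 7106203 in KO. Levels are given as CPM, a count as a share of the library total scaled up to a fixed total, after TMM scaling, which adjusts library totals for differences in composition. Long and short transcripts were not equally represented in the libraries. Each transcript's log2 level was centred on its mean over the 6 libraries, and medians were taken over long transcripts (length value 1000 or higher) and short ones (below 200), both of at least 5 CPM. The long-minus-short difference was -0.06, -0.29 and 0.47 in WT replicates 1, 2 and 3 and 0.17, -0.17 and -0.14 in KO. The length values of the 8 members ran from 104 to 590. KO replicates 2 and 3 stood apart as the closest pair, and the edgeR results for Reg1, Cela1, Cel, Prss2, Ctrb1 and Clps were also computed with them summed. Their counts differed by a chi-square per degree of freedom of 1.34, against 4.75 to 11.9 for the other pairs within a genotype, where counting noise alone gives about 1.

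The label of an acinar line held for some of its defining enzymes and not for others. Ctrb1, Cela1 and Prss2 stood at ranks 5, 13 and 24 of all tested transcripts by mean WT level. With levels divided by the length value, the ranks were 25, 26 and 34. Transcripts that share footprints are counted separately in both rankings. Cpb1 (carboxypeptidase), Pnlip (pancreatic lipase) and Clps (its cofactor colipase) lay below 5 CPM in every library, and Cel below 12 CPM. The protease members together took 0.590%, 0.732% and 0.485% of all counts in WT, and 0.626%, 0.667% and 0.621% in KO. The genotypes overlapped in this share. The members of fat digestion, Cel, Pnlip and Clps, together had 63, 56 and 62 counts in WT, and 22, 37 and 31 counts in the deeper KO libraries. This difference was that of Cel alone, since Pnlip and Clps together had 10, 18 and 11 counts in WT and 21, 33 and 28 in KO.

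**Figure D1:**
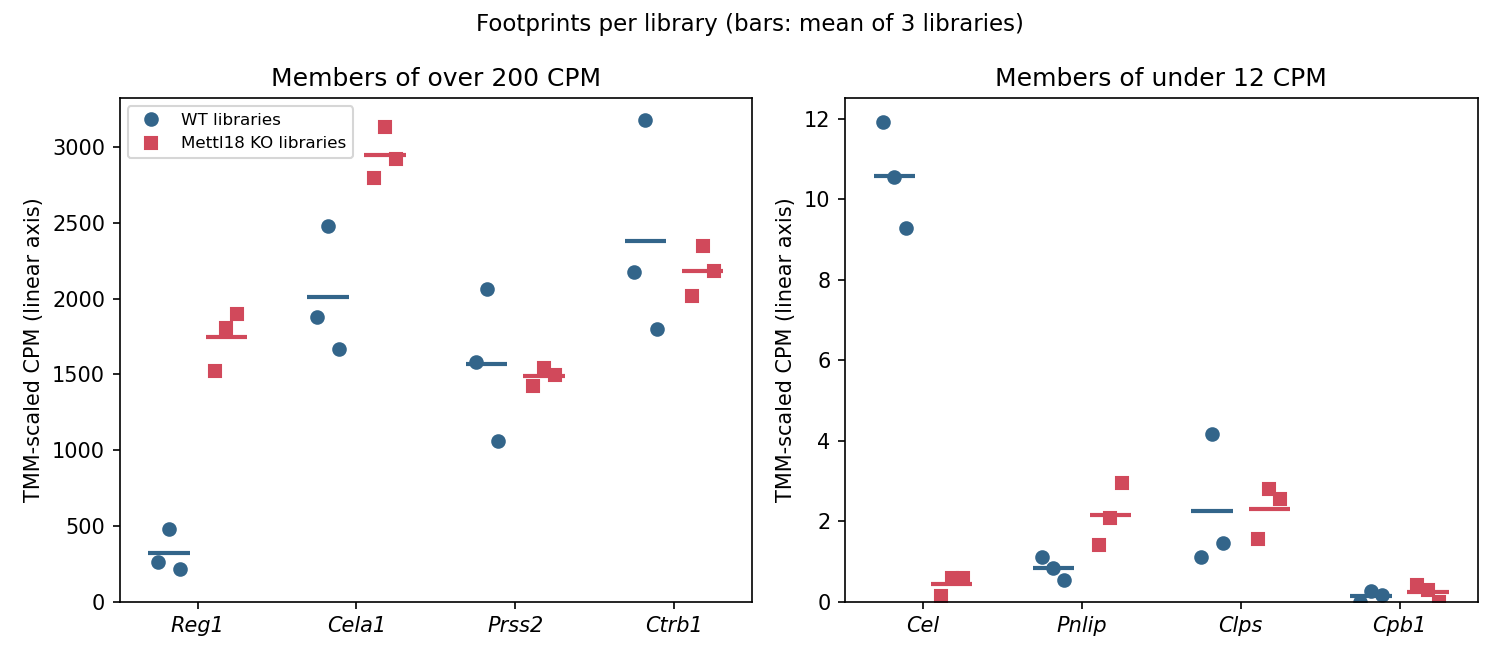
Footprint level of each member in each library, as TMM-scaled CPM on linear axes, with the 4 abundant members on the left and the 4 scarce ones on the right. Circles are the WT libraries and squares the KO libraries, from replicate 1 to 3 left to right, and bars are means of 3 libraries. Reg1 and Cela1 were higher in all KO libraries than in any WT library, Cel was lower, and the Prss2 and Ctrb1 values of KO lay within the range of WT.

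Reg1 encodes a small secreted lectin-like protein of acinar cells that is linked to islet and acinar regeneration. Its gene lies on chr6:78425983-78428668 (GRCm38.p6), and its transcript here is ENSMUST00000079926.5. Its footprint level was 261, 482 and 218 CPM in WT replicates 1, 2 and 3 and 1525, 1806 and 1900.0 CPM in the KO replicates. Every KO library thus held more than 3 times the highest WT level. The means were 320.0 ± 142 CPM in WT and 1744 ± 195 CPM in KO (SD, n = 3 each). The log2 fold change was 2.45 ± 0.31 (SE; edgeR adjusted p = 0.00184), with a 95% interval of 3.39-fold to 8.78-fold. With KO replicates 2 and 3 summed as 1 sample it was 2.40 (edgeR adjusted p = 0.0129). The rise rested on 4087 counts in WT and 32561 in KO, so counting error was small beside the spread between libraries. The Reg1 coding sequence is also on the transfected plasmid, and footprints on plasmid and endogenous Reg1 mRNA cannot be told apart in these counts. The amount of plasmid taken up per library is not given in the sources used here, and its part in the rise was not tested. The row stands for 3 transcript entries with identical counts.

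Cel encodes carboxyl ester lipase, the bile salt-dependent enzyme that cleaves cholesterol esters and other dietary lipid esters. Its gene lies on chr2:28555819-28563403 (ENSMUST00000028161.5). The WT libraries held 53, 38 and 51 footprints on it and the KO libraries 1, 4 and 3, although the KO libraries were the deeper ones. These are 11.9, 10.6 and 9.28 CPM in WT and 0.142, 0.593 and 0.592 CPM in KO, with no overlap and a similar level in all WT libraries. The means were 10.6 ± 1.32 CPM in WT and 0.442 ± 0.260 CPM in KO (SD, n = 3 each). The log2 fold change was -4.56 ± 0.39 (SE; edgeR adjusted p = 0.000229), the 11th lowest of all tested transcripts. Cel passed the filter on low counts only through its WT libraries, and its rank holds only among transcripts that passed it. With no filter, edgeR's test also called Cel (log2 fold change -4.54, adjusted p = 0.00012). It was not tested where at least 10 counts were required in every library. With KO replicates 2 and 3 summed the log2 fold change was -4.61 (edgeR adjusted p = 0.00211). From the summed counts, 142 in WT and 8 in KO, WT exceeded KO 24.7-fold, and the exact binomial interval (95%) ran from 12.2-fold to 58.4-fold. That interval covers counting error only and is still wider than the SE implies, so the SE is too small. Cel was the member with the highest length value, 590, and the only member called lower in KO. Whether length had a part in this was not tested.

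**Figure D2:**
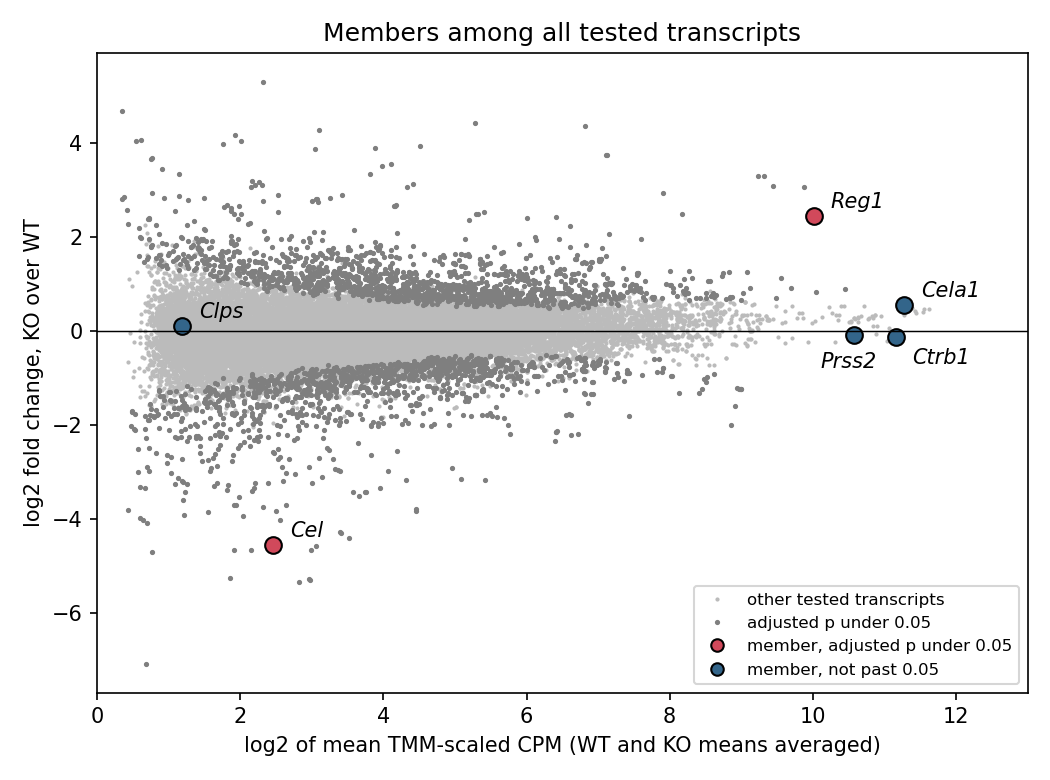
Log2 fold change (KO over WT) of every tested transcript against the log2 of its mean TMM-scaled CPM, with the 6 tested members as large labelled circles. Light points did not pass an adjusted p of 0.05 and darker points did. Reg1 (2.45) and Cel (-4.56) lay at opposite edges of the cloud, while Prss2, Ctrb1 and Clps lay near 0.

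The stretches upstream of Reg1 and Cel, the members that moved in opposite directions, and of Cela1 are shown to let a reader see what precedes each gene. Each is the 250 bases before the annotated start, from RefSeq (GRCm38.p6), 5′ to 3′ in the direction of the gene. Capitals mark TATAAA, the core of a TATA box, CACCTG, an E-box of the kind bound by the acinar factor complex PTF1, and TTTCCC, a core of the second element of PTF1 sites, searched on both strands.
Reg1, chr6:78425733-78425982, plus strand: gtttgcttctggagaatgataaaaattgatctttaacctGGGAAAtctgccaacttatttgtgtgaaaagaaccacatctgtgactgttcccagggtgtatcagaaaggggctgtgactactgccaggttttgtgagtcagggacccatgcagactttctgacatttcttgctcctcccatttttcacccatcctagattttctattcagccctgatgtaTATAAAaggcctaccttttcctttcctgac
Cela1, chr15:100687921-100688170, minus strand: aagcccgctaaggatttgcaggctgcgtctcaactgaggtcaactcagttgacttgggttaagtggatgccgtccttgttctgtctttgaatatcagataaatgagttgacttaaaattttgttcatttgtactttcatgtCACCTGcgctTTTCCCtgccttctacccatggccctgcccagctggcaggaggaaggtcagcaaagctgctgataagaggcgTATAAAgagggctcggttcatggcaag
Cel, chr2:28563404-28563653, minus strand: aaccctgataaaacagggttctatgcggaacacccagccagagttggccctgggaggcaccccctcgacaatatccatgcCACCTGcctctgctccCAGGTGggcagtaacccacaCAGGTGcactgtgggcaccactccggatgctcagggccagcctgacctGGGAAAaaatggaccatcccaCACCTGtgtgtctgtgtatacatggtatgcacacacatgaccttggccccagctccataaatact
The marked matches do not overlap in these windows. No promoter measurement was made in these libraries, and whether the Reg1 plasmid carries any of this region is not given in the sources used here.

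Promoter entries were matched by symbol for 7 of the 8 members. TATAAA was present on either strand in 4 of these 7 windows, against 12.4% of all 32851 windows of the same length. It began at base -30 before the start in Reg1 and in Pnlip, at -27 in Cela1 and at -16 in Prss2. CACCTG was present in 4 of the 7, against 17.2% of all windows, and TTTCCC in 5 of the 7, against 21.9%. The Cel window held 4 matches to CACCTG, a number reached in 0.0426% of all windows. The Reg1, Pnlip and Ctrb1 windows held none, as did most of all windows. The Cela1 window held a CACCTG at -109 followed by a TTTCCC at -99. These counts describe letters and were made after the fold changes were known. The members with TATAAA or CACCTG included both ones that changed and ones that did not pass the test.

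Cela1 encodes the elastase CELA1, a serine protease that cleaves elastin and other proteins. Its gene lies on chr15:100674422-100687920 (ENSMUST00000023775.8). Its level was 1875, 2480.4 and 1669.7 CPM in WT and 2792, 3131 and 2922 CPM in KO. All KO libraries lay above all WT libraries, the nearest pair being WT replicate 2 and KO replicate 1. The means were 2008 ± 421 CPM in WT and 2948 ± 171 CPM in KO (SD, n = 3 each). At 0.55 ± 0.23 (SE), the log2 fold change did not pass (edgeR adjusted p = 0.165, with an unadjusted 95% interval of 1.03-fold to 2.10-fold). Cela1 did pass in DESeq2's Wald test (log2 fold change 0.57, adjusted p = 0.0424) and in edgeR without WT replicate 2 (0.74, adjusted p = 0.0297). With KO replicates 2 and 3 summed it was 0.54 (edgeR adjusted p = 0.398). Over all alternatives its edgeR, DESeq2 or limma adjusted p ran from 0.0297 to 0.461.

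Prss2 encodes an anionic trypsinogen, the precursor of trypsin, which once active cleaves and activates the other protease precursors. Its gene lies on chr6:41521776-41525079 (ENSMUST00000070380.4). Its level was 1581, 2064 and 1061 CPM in WT and 1426, 1541 and 1493 CPM in KO. The KO values lay inside the WT range. The log2 fold change was -0.08 ± 0.26 (SE; edgeR adjusted p = 0.874), and the 95% interval of 0.638-fold to 1.41-fold leaves room for a moderate change in either direction. Mouse trypsinogen genes are a family of close copies, and how footprints shared between copies were counted is not given in the sources used here, so the Prss2 level is uncertain.

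Ctrb1 encodes the chymotrypsinogen whose active form cleaves after aromatic residues. Its gene lies on chr8:111686510-111691010 (ENSMUST00000034435.6). Its level was 2173, 3174 and 1797 CPM in WT and 2017, 2347 and 2181 CPM in KO, again with every KO value inside the WT range. The log2 fold change was -0.13 ± 0.25 (SE; edgeR adjusted p = 0.787, 95% interval 0.618-fold to 1.36-fold). The signs for Prss2 and Ctrb1 rested on WT replicate 2, without which they were 0.18 and 0.14. In all of Reg1, Cela1, Prss2 and Ctrb1, WT replicate 2 was the highest WT library and WT replicate 3 the lowest. That is the reverse of their order in the contrast of long against short transcripts, whose part in these levels was not tested.

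**Figure D3:**
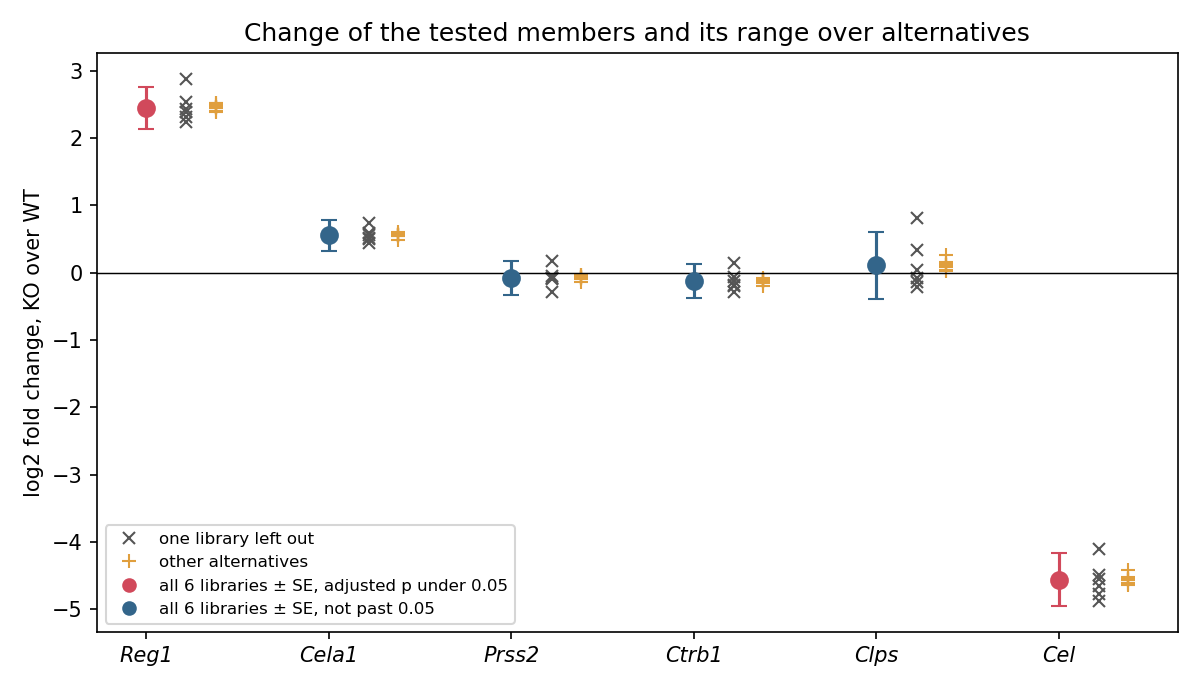
Log2 fold change (KO over WT) of the 6 tested members. Circles with bars are the values from all 6 libraries ± SE, crosses the values with 1 library left out, and plus signs the other alternatives. Reg1 stayed between 2.24 and 2.87 and Cel between -4.88 and -4.10, while the crosses for Prss2, Ctrb1 and Clps lay on both sides of 0.

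Pnlip encodes pancreatic triglyceride lipase, the main enzyme of dietary fat digestion (ENSMUST00000057270.8, chr19:58670365-58681799). It had 5, 3 and 3 footprints in WT and 10, 14 and 15 in KO, which did not pass the filter on low counts. These are 1.12, 0.834 and 0.546 CPM in WT and 1.42, 2.07 and 2.96 CPM in KO. The genotypes did not overlap. Over summed counts KO exceeded WT 2.54-fold, and the exact binomial interval (95%, counting error only) ran from 1.28-fold to 5.51-fold. With no filter, edgeR's test gave an adjusted p of 0.125 for it, and without each of WT replicates 1, 2 and 3 and KO replicate 1, when it passed the filter, 0.153, 0.141, 0.271 and 0.0930.

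Clps encodes colipase, which anchors pancreatic lipase at the fat droplet in the presence of bile salts (ENSMUST00000025062.4, chr17:28558210-28560766). It had 5, 15 and 8 footprints in WT and 11, 19 and 13 in KO, or 2.25 ± 1.67 and 2.31 ± 0.665 CPM (SD, n = 3 each). The libraries of the genotypes overlapped. Its log2 fold change was 0.11 ± 0.49 (SE; edgeR adjusted p = 0.908), and the 95% interval ran from 0.503-fold to 2.32-fold. Cpb1 encodes a carboxypeptidase that removes basic residues from the ends of peptides (ENSMUST00000011607.5, chr3:20249479-20275733). It had 0, 1 and 1 footprints in WT and 3, 2 and 0 in KO, so a difference between the genotypes was not detectable at this depth.

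Set against each other per codon, the abundant members changed their order between the genotypes. The level per codon is the CPM per 100 units of the length value, which is taken as the number of codons counted. In WT, Ctrb1 had 938 ± 280 CPM per 100 codons, Cela1 781 ± 164, Prss2 662 ± 212 and Reg1 205 ± 90.7 (SD, n = 3). The first 3 of these overlapped across libraries, but their order was the same within every WT library. In KO, Cela1 had 1147 ± 66.5 CPM per 100 codons, Reg1 1118 ± 125, Ctrb1 859 ± 65.1 and Prss2 627 ± 24.4. Cela1 and Reg1 did not differ beyond their spread in KO, and both lay above Ctrb1 in every KO library. By this measure Reg1 stood at rank 176 of the tested transcripts in WT and at rank 26 in KO, although transcripts that share footprints are counted separately in these ranks. The Reg1 levels and ranks include any footprints on plasmid Reg1 mRNA.

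Ratios between members of the same library do not depend on how libraries are scaled. Those with Reg1 still include any footprints on plasmid Reg1 mRNA. Footprints per codon on Reg1 relative to Ctrb1 were 0.195, 0.247 and 0.197 in WT and 1.23, 1.25 and 1.42 in KO. Reg1 was thus far below Ctrb1 in each WT library and above it in each KO library, a log2 difference of 2.62 ± 0.13 (SE). The ratio of Cela1 to Ctrb1 was 0.853, 0.772 and 0.918 in WT and 1.37, 1.32 and 1.32 in KO, a log2 difference of 0.66 ± 0.07 (SE). The SD of this log2 ratio was 0.13 in WT and 0.03 in KO. The ratio of Prss2 to Ctrb1 was 0.780, 0.697 and 0.632 in WT and 0.758, 0.704 and 0.734 in KO. The KO values again lay inside the WT range. Reg1 relative to Cela1 differed by 1.95 ± 0.19 on the log2 scale (SE).

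Of the 6 ratios among Reg1, Cela1, Prss2 and Ctrb1, 5 did not overlap between the genotypes. All 5 include Reg1 or Cela1, whose own levels did not overlap, so the count adds little to those. Of all tested transcripts taken singly, 30.8% did not overlap, and no such share was computed for ratios. Each of the 5 had an exact two-sided permutation p of 0.1 (Benjamini-Hochberg adjusted 0.12). A p of 0.1 is the smallest that 3 against 3 libraries allow, so the ratios could not pass 0.05. For Prss2 relative to Ctrb1 the log2 difference was 0.06 ± 0.09 (SE; exact two-sided permutation p = 0.6). The 6 ratios come from 4 transcripts and are not independent of each other.

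**Figure D4:**
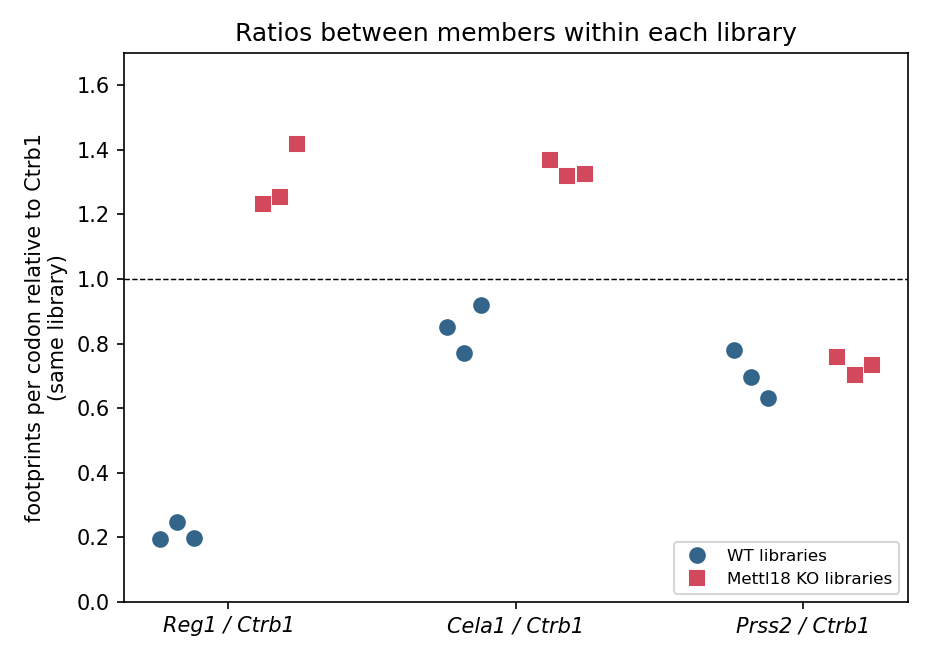
Footprints per codon on Reg1, Cela1 and Prss2 relative to Ctrb1 in the same library, on a linear axis, with circles for WT and squares for KO libraries in replicate order and a dashed line at 1. The Reg1 ratio went from 0.195 to 0.247 in WT to 1.23 to 1.42 in KO, the Cela1 ratio lay below 1 in WT and above 1 in KO, and the Prss2 ratio overlapped.

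As a share of all counts, Reg1 took 0.0274%, 0.0457% and 0.0233% in WT, and 0.153%, 0.172% and 0.179% in KO. All 8 members took 0.619%, 0.779% and 0.509% in WT and 0.779%, 0.839% and 0.800% in KO. Without Reg1 the shares were 0.592%, 0.733% and 0.486% in WT and 0.626%, 0.667% and 0.622% in KO, and the genotypes overlapped.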

How the data were processed

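Footprints were measured in 3 WT and 3 Mettl18 KO libraries of 266-6 cells. The authors deposited raw counts per Ensembl transcript, 1 table per library, with a length value. The submitters' processing notes name STAR 2.7.0a, UMI-tools 1.1.2, cutadapt 3.7, CASAVA 1.8 and mm10. The counting program and strand setting were not given in the sources used here. Total RNA was not used here. The members and lists were chosen with earlier results of these data known, and all 8 members are named.

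Rows with identical counts were merged, leaving 39355. The test was edgeR 4.0.16 (R 4.3.3) with filterByExpr, TMM, no term besides genotype, and Benjamini-Hochberg adjustment over 30588 rows. The approximate standard errors come from each fold change and its F statistic. Alternatives were limma-voom (limma 3.58.1), DESeq2 1.42.0, other scalings and filters, a replicate block, left-out libraries, summed KO replicates and equal totals. The reference names no Ensembl identifiers, so member names rest on identifier and length value, and Mettl18, other acinar genes and markers of other cell types were not analysed here. Tyrosine content and correlations between members were not computed, the first for want of protein sequences and the second because the genotypes form separate groups of 3 libraries.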

Additional observations from a re-analysis of the deposited data

How the results depend on the processing

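Reg1 passed at 0.05 in the same direction under each of 18 alternatives, and Cel under each of the 17 that tested it. Their highest adjusted p were 0.0217 and 0.00404, both without WT replicate 1. With at least 10 counts required in every library, Cel and Clps were not tested, so 0 members were called lower. The number of members higher in KO was 2 in DESeq2's Wald test, where Cela1 passed. Leaving out each library gave 1 to 2 members higher, with 2 without WT replicate 2, and 1 member lower each time. Over all transcripts, leaving out each library gave 368 to 2223 higher and 302 to 1718 lower, against 1571 and 1314, and summing KO replicates 2 and 3 gave 436 and 356. The cause was not tested. The log2 fold change with each library left out ran from -0.29 to 0.18 for Prss2, from -0.29 to 0.14 for Ctrb1 and from -0.22 to 0.81 for Clps, so their directions are not settled. With the replicate block, 1168 transcripts were higher and 944 lower, Reg1 and Cel were the only members called, and Reg1 had a log2 fold change of 2.53. Same-numbered libraries did not all deviate together (r of deviations across transcripts -0.04, 0.40 and -0.38 for replicates 1, 2 and 3). Between differently numbered libraries r ran from -0.58 (WT replicate 2, KO replicate 1) to 0.62 (WT replicate 3, KO replicate 1). The main test did not take the numbers as pairs, since the labels do not state that they pair the libraries. With library sizes and TMM factors computed without Reg1, the Reg1 log2 fold change was 2.45. The ratios between members moved by less than their spread between libraries. Equal totals and the alternatives for ratios were chosen after seeing the data. The pair of KO replicates to sum was picked by its closeness in these counts. The ratios between members and their permutation tests were not in the initial plan. Clps, Pnlip and Cpb1 are limited by depth, and Pnlip and Cpb1, outside the test on all 6 libraries, did not pass in any alternative that tested them. These were 5 for Pnlip (log2 fold change 1.06 to 1.61) and, for Cpb1, the 1 with no filter (adjusted p = 0.745).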
